A study of Mus musculus with 18 samples.

Results

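The 35 genes described here encode the machinery that acts downstream of Hrs in endosomal sorting: ESCRT-I, ESCRT-II, ESCRT-III, the Vps4 ATPases and their cofactor, the Bro1 proteins, the endosomal deubiquitinases, and ubiquitin receptors that can act beside Hrs. They were chosen by symbol, with no measured value in the rule, from the 23453 gene symbols of the count table, and all 35 symbols were present. The cells were B16F10, a mouse melanoma line of C57BL/6 origin, infected with lentivirus carrying a pLKO.1 vector and selected with antibiotic. One vector expressed an shRNA against Hrs (gene symbol Hgs; shHrs) and the other a scrambled shRNA (shCTL), so the control cells had also been infected and selected. Cultured cells formed 2 batches, each with 2 shCTL and 2 shHrs libraries, and tumours formed groups of 5 shCTL and 5 shHrs libraries. The tumours had been taken from immunocompetent wild-type female C57BL/6 mice aged 6 to 8 weeks at use, and their RNA held host cells as well as B16F10 cells. Which hairpin sequences were used, whether the lines were clones and whether the tumours were pooled is not given in the sources used here.

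ESCRT-0, the complex of Hrs with Stam or Stam2, binds ubiquitinated membrane proteins on the early endosome and recruits ESCRT-I through Tsg101. ESCRT-I and ESCRT-II then gather the cargo and nucleate ESCRT-III, whose CHMP subunits polymerise on the membrane and cut vesicles into the endosome lumen before Vps4 takes the polymer apart. Deubiquitinases remove ubiquitin before the cargo is enclosed, and the same late machinery closes the midbody, repairs membranes and buds exosomes. The comparisons asked whether transcripts of this downstream machinery differed when Hrs was depleted.

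Library totals ran from 17612820 to 27705076 counts, and the 35 genes together took 0.266 to 0.336% of the counts of a library. Levels are CPM, the usual depth-scaled count, on library sizes adjusted by the trimmed mean of M-values. Fold changes are shHrs over shCTL on the log2 scale with their standard error (SE), and a gene was called when its edgeR quasi-likelihood p, adjusted over all genes tested, was under 0.05. Of the 35 genes, 34 passed the filter on low counts in every comparison. Chmp4c, a paralogue of Chmp4b known for the abscission checkpoint, did not: it had 0 to 19 counts in a library and is not tested below. The labels call the replicates biological but do not say that cultures were infected or grown apart, so the p-values measure the spread between these libraries. For each culture batch the SE and p come from a joint fit of all cultures. Both batches share its estimate of the spread, so these values do not rest on the libraries of a batch alone. Replicates of every group differed by more than counting noise, most of all the shHrs cultures of batch 1, where chi-square per degree of freedom was 220.

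Hgs, the targeted gene, was 95 and 113 CPM in the shCTL cultures of batch 1 and 35.2 and 30.4 CPM in the shHrs cultures. In batch 2 it was 97.8 and 107 CPM in shCTL and 44.5 and 41.3 CPM in shHrs. The shCTL tumours had 107, 97.6, 112, 109 and 95.8 CPM and the shHrs tumours 23.8, 17.1, 21.3, 29.2 and 16.1 CPM. The groups were apart in each setting, and every library matched its label. The log2 fold change was -1.67 in batch 1 (SE 0.22, edgeR adjusted p 0.103), -1.30 in batch 2 (SE 0.22, edgeR adjusted p 0.0268) and -2.28 in tumours (SE 0.16, edgeR adjusted p 0.000106). The targeted gene thus missed the threshold in batch 1, and with both batches in one fit it was -1.49 (SE 0.17, edgeR adjusted p 0.0502). Other fits did call it: the adjusted p in batch 1 was 3.03e-06 by DESeq2 and 0.000305 by edgeR with no filter on low counts, though 0.125 by limma voom, and over both batches it was 8.91e-10 by DESeq2, 0.00569 by edgeR with no filter and 0.0332 by limma voom. Without shHrs 1 of batch 1 the adjusted p was 0.00595 in batch 1 and 0.0275 over both batches, and the batch 2 call was lost without any one of the batch 2 libraries, with adjusted p from 0.117 to 0.308. In those 4 fits 0 genes of the whole table were called, and the log2 fold change of Hgs in batch 2 stayed between -1.37 and -1.20 whichever of the 8 cultures was left out. Its partners Stam and Stam2 were not called in any of the main edgeR comparisons, and the other fits were not examined for them. Stam stood at 61.3, 54.7, 56.4 and 176 CPM in the batch 1 cultures (shCTL 1 and 2, then shHrs 1 and 2), 73.6, 115, 58.8 and 63.0 CPM in batch 2 in the same order, 51.1 to 62.0 CPM in the shCTL tumours and 37.6 to 74.1 CPM in the shHrs tumours. The 176 CPM came from 1 library, shHrs 2 of batch 1. Stam2 ran from 88.0 to 136 CPM in cultures and from 58.4 to 102 CPM in tumours.

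With Hgs 4.85-fold lower in tumours, none of the downstream genes passed the test, and their intervals were narrow. Of the 34 genes tested, 0 were called in tumours by edgeR, beside 0.545% of all 13215 genes tested (0.235% higher and 0.31% lower). DESeq2 and limma voom also called 0, beside 3.69 and 0.59% of all genes. At an unadjusted p under 0.05 edgeR had 2 of the 34, Ubap1 and Ptpn23, beside 14.1% of all genes. The 34 log2 fold changes lay between -0.21 and 0.20, with 17 above 0 and 17 below, and their median was 0.00 beside 0.01 over all genes. The shHrs and shCTL tumours overlapped for each of the 34, beside 2% of all genes whose shHrs tumours were all higher and 2.28% whose shHrs tumours were all lower. The 95% confidence interval excluded a 2-fold change in either direction for all 34 genes, and for 33 it lay within 0.5 log2 units of 0. The exception was Tom1l2, with an interval reaching -0.52. In bulk tumours fewer cells of a type and less RNA per cell cannot be told apart.

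**Figure D1:**
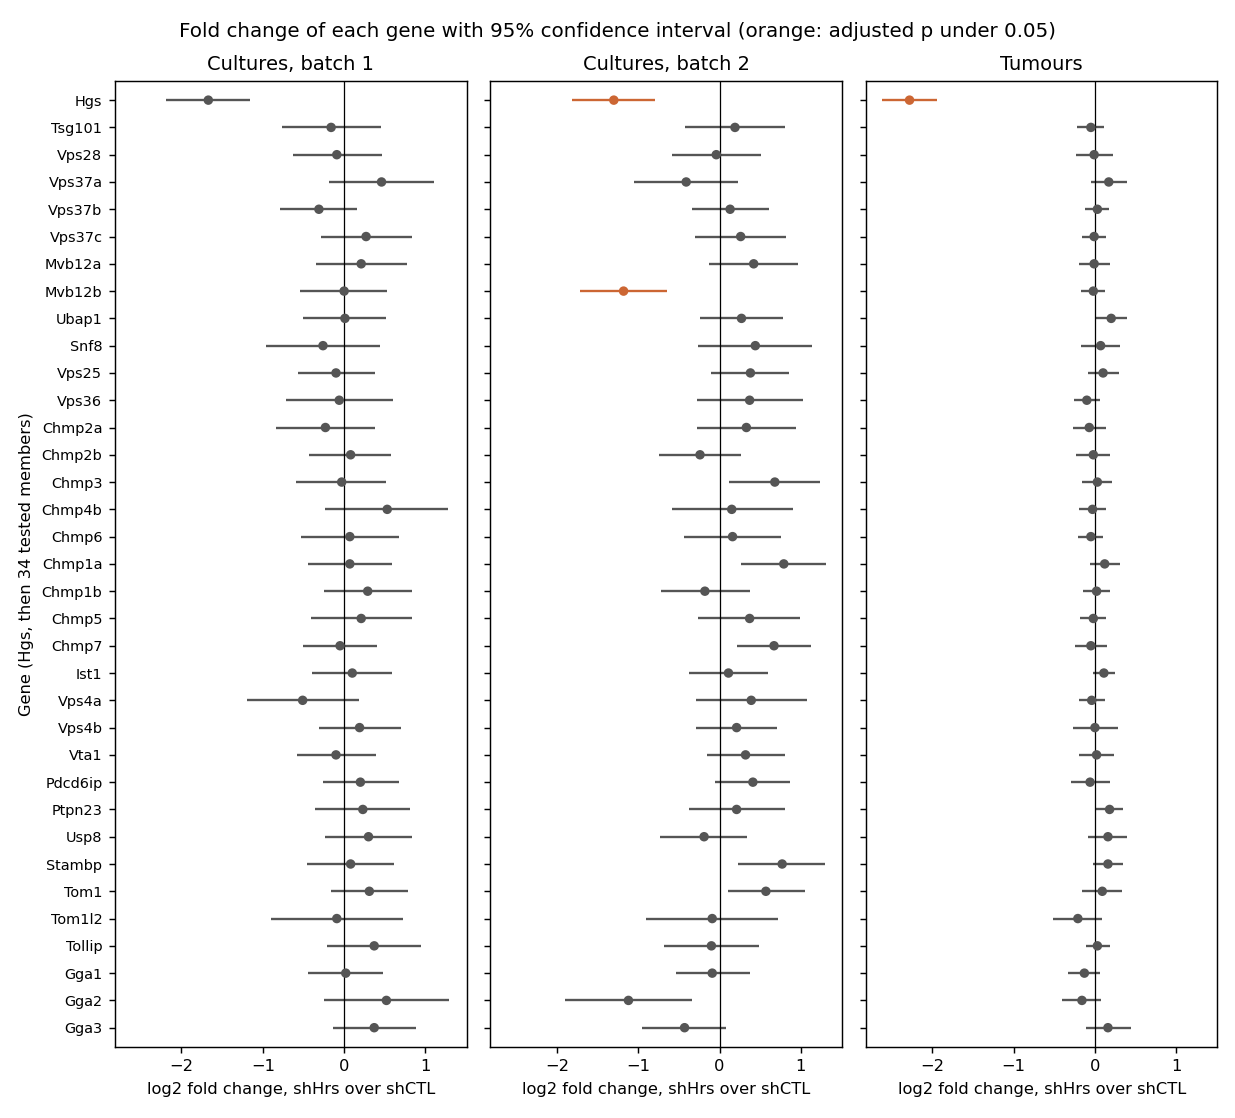
Log2 fold change (x axis, shHrs over shCTL) with its 95% confidence interval for Hgs and the 34 tested genes (y axis) in the cultures of batch 1, the cultures of batch 2 and the tumours. Orange marks an edgeR adjusted p under 0.05. In tumours the 34 points lie between -0.21 and 0.20 while Hgs lies at -2.28, and in batch 2 Mvb12b at -1.18 is the orange point among the 34.

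In cultures the same genes varied more. With both batches in one fit edgeR called 0 of 34, beside 0% of 12617 genes. Beside 2.14 and 0.0396% of all genes, DESeq2 and limma voom called 0 of the 34. Log2 fold changes were above 0 for 25 of them, and the median was 0.11 (all genes -0.02). At an unadjusted p under 0.05 edgeR had Tom1 alone, beside 13.3% of all genes. In batch 1, edgeR called 0 of 34 beside 0% of 12897 genes. No gene of the 34 had an unadjusted p under 0.05 there, beside 9.38% of all genes, and the median was 0.08 (all genes 0.01). DESeq2 and limma voom called 0 of the 34 in batch 1, beside 1.57 and 0% of all genes. In batch 2, edgeR called 1 of 34, Mvb12b, which was lower, beside 4.03% of all genes (1.6% higher and 2.43% lower). The 7 genes with an unadjusted p under 0.05 in batch 2 were Mvb12b, Chmp1a, Chmp7, Gga2, Stambp, Chmp3 and Tom1, beside 27.9% of all genes, so the members' share was below that of the table as a whole. The batch 2 median was 0.21 beside -0.05 over all genes, and 23 of 34 were positive. For 16 genes both shHrs cultures of batch 2 were above both controls and for 5 both were below, beside 35% and 34.7% of all genes. In batch 1 the same held for 7 above and 3 below, beside 15.3% and 16.8%. Testing the batch 2 effect against that of batch 1, edgeR called 0 of 34, beside 0.155% of all genes (0.132% higher, 0.0233% lower). DESeq2 called 1 and limma voom 0, beside 7.21 and 0.101% of all genes. At an unadjusted p under 0.05 edgeR had 4 of the 34 beside 20.3% of all genes. Standard errors had a median of 0.24 in each batch, where both batches shared an estimate of the spread, and 0.09 in tumours. In batch 2 the 95% interval excluded a 2-fold change for 23 of the 34 genes, and in batch 1 for 30.

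The libraries did not contribute evenly. In shHrs 2 of batch 2, 12 of the 34 genes lay more than 0.5 log2 units above the control mean of their batch and 3 more than 0.5 below, with a median difference of 0.40, and in shHrs 1 of batch 2 these were 6 and 2 with a median of 0.13. In batch 1 the values were 5 and 2 with a median of 0.19 for shHrs 2, and 1 and 0 with a median of 0.00 for shHrs 1. Median differences over all genes were 0.00 in each of these cultures, and the share of all genes beyond 0.5 was not counted. Log2 fold changes lay beyond 1 in either direction for 5.88% of the 34 and 22.1% of all genes in batch 2. In batch 1 these shares were 0 and 10.4%. Among tumours, shHrs 4 had 4 genes more than 0.5 below the control mean, and the other 9 tumours had 0 beyond 0.5 in either direction.

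**Figure D2:**
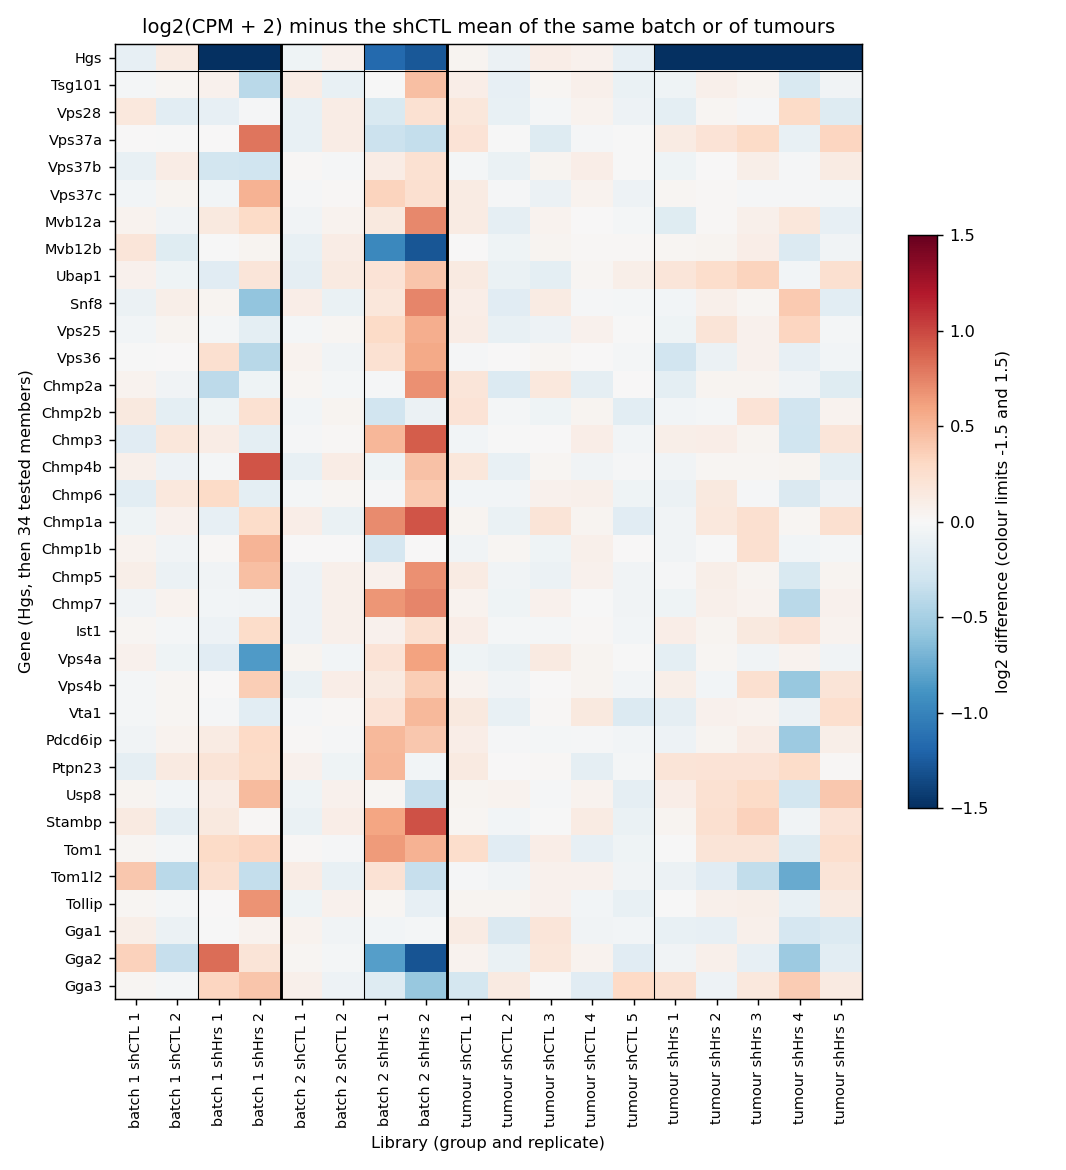
Difference of log2(CPM + 2) from the mean of the shCTL libraries of the same batch or of tumours (colour, limits -1.5 and 1.5) for Hgs and the 34 tested genes (rows) in 18 libraries (columns). The shHrs 2 culture of batch 2 holds 12 genes more than 0.5 above its controls (share of all genes not counted). The blue cells of Mvb12b and Gga2 stand in both shHrs cultures of batch 2. The tumour cells below the Hgs row stay within 0.5 apart from 4 of shHrs 4.

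The batch 2 shHrs cultures differed from their controls in lists of genes that mark the state of the cells. Over all genes, edgeR called 4.03% in batch 2 and 0% in batch 1. Summed CPM of 6 heat shock genes was 1080 to 1220 in shCTL and 3350 to 3950 in shHrs, and 4 of the 5 tested genes were called higher. The 6 cell cycle genes summed to 933 to 1450 CPM in shCTL and 203 to 275 CPM in shHrs, with 4 called lower, and the 6 genes of the ATF4 stress response to 1870 to 2490 and 521 to 648 CPM, with 2 called lower. The 8 interferon-stimulated genes summed to 126 to 142 and 578 to 746 CPM, with 2 called higher, and the 7 melanocyte genes to 11600 to 13800 and 4330 to 5220 CPM, with 0 called. In batch 1 none of these genes was called, and in the sums the shHrs cultures spanned 1860 to 1920 CPM for heat shock (shCTL 1400 to 2150), 746 to 1760 for cell cycle (shCTL 1270 to 1840), 1080 to 3570 for ATF4 (shCTL 567 to 1300), 191 to 631 for interferon (shCTL 152 to 239) and 8130 to 19200 for melanocyte genes (shCTL 9500 to 15200). The part of these shifts in the culture results below was not tested.

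Markers of other cell types were low in cultures, and most lists reached higher sums in tumours. For myeloid, muscle, keratinocyte and adipocyte markers the lowest tumour sums lay within the range of the cultures. T, NK and B cell markers summed to at most 1.09 CPM in any culture with at least 6 of 10 listed at 0 in each group, endothelial markers to at most 0.335 CPM, keratinocyte markers to at most 0.108 CPM and erythroid markers to at most 0.496 CPM. Myeloid markers reached 29.3 CPM in cultures, fibroblast markers 77.4 CPM, muscle markers 9.8 CPM and adipocyte markers 1.91 CPM. In tumours (shCTL, then shHrs) the sums were 25.9 to 413 and 136 to 737 CPM for 9 myeloid genes, 1.41 to 7.97 and 2.24 to 29.6 CPM for 10 T, NK and B cell genes, 89.1 to 144 and 93.1 to 161 CPM for 5 endothelial genes, and 197 to 2200 and 183 to 1290 CPM for 6 fibroblast genes. They were 4.98 to 131 and 14 to 530 CPM for 4 muscle genes, 57.4 to 1840 and 27.7 to 146 CPM for 4 erythroid genes, up to 0.221 and 1.89 CPM for 3 keratinocyte genes and up to 5.86 and 1.63 CPM for 2 adipocyte genes. None of the genes on these 8 lists was called in tumours, beside 0.545% of all genes. The 7 melanocyte genes, which check the label of the line, summed to 20000 to 24900 and 20400 to 27500 CPM. Interferon-stimulated genes summed to 142 to 744 and 537 to 1400 CPM, heat shock genes to 2640 to 3700 and 2270 to 3180, cell cycle genes to 1390 to 1880 and 1350 to 1680, and ATF4 genes to 422 to 1010 and 412 to 898. The highest myeloid, lymphoid, muscle and interferon sums among the tumours all came from shHrs 4, the tumour in which 4 downstream genes lay low. A link between them in this single tumour was not tested.

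The clearest single difference among the downstream genes was in the ESCRT-I subunit slot that is filled by Mvb12a, Mvb12b or Ubap1. Mvb12b, which binds ubiquitin and membrane within ESCRT-I, was 182 and 213 CPM in the shCTL cultures of batch 2 and 99.8 and 79.7 CPM in the shHrs cultures. In batch 1 it was 159 and 124 CPM in shCTL and 140 and 144 CPM in shHrs. The shCTL tumours had 88.4, 84.1, 90.9, 89.0 and 89.0 CPM and the shHrs tumours 90, 90.8, 94.4, 76.2 and 84.7 CPM. The batch 2 groups were apart, the batch 1 shHrs values lay between the controls, and the tumour groups overlapped at about the level of the batch 2 shHrs cultures. The log2 fold change was -1.18 in batch 2 (SE 0.24, edgeR adjusted p 0.0378, lower in 2 of 2 libraries), 0.00 in batch 1 (SE 0.23, edgeR adjusted p 0.999) and -0.02 in tumours (SE 0.07, edgeR adjusted p 0.915). The batch 2 effect differed from the batch 1 effect by -1.18 (SE 0.33, edgeR adjusted p 0.125), short of the threshold. The batch 2 call was lost without any one of the 4 batch 2 libraries, with adjusted p from 0.117 to 0.324. In those 4 fits 0 genes of the whole table were called, and the log2 fold change of Mvb12b stayed between -1.37 and -0.98 whichever of the 8 cultures was left out.

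The tumour effect of Mvb12b was higher than the mean culture effect by 0.55 log2 units (SE 0.14, edgeR adjusted p 0.048). That mean joins -1.18 in batch 2 with 0.00 in batch 1, and the tumour value of -0.02 was close to that of batch 1. Mvb12b was the 1 gene of 34 called in that contrast, beside 3.61% of all 14458 genes tested (2.12% higher and 1.49% lower). DESeq2 called 1 of the 34 higher as well and limma voom 0, beside 10.8 and 3.18% of all genes. At an unadjusted p under 0.05 edgeR had 5 of 34 beside 21% of all genes. The call was lost in 14 of the 18 fits that left out a library, with adjusted p from 0.0578 to 0.139, while the difference stayed between 0.45 and 0.62 in all 18. Of the 34 genes, 25 had a negative difference between the effects, the median was -0.12 and the median over all genes was 0.01.

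Mvb12a, the paralogue of Mvb12b, was 85.8 and 93.1 CPM in the shCTL cultures of batch 2 and 99 and 149 CPM in shHrs, 79.2 and 73.0 against 84.4 and 93.4 CPM in batch 1, 113 to 136 CPM in the shCTL tumours and 110 to 141 CPM in the shHrs tumours. Both culture batches had shHrs above shCTL without overlap, but the log2 fold changes of 0.21 (SE 0.24) and 0.42 (SE 0.24) were within about 2 standard errors of 0 and were not called. Ubap1, which pairs ESCRT-I with cargo sorting, was 75.1 and 68.7 CPM in the batch 1 controls and 63.7 and 81.9 CPM in batch 1 shHrs, 55.9 and 68.1 against 71.7 and 82.8 CPM in batch 2, 62.7, 53.0, 51.0, 57.8 and 60.3 CPM in shCTL tumours and 64.9, 68.7, 71.9, 55.2 and 67.6 CPM in shHrs tumours. In tumours 4 of the 5 shHrs values lay above the highest control. The log2 fold change of 0.20 (SE 0.09, p 0.0399, edgeR adjusted p 0.326) did not pass.

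To set transcripts side by side, levels were divided by the length of all annotated exons of a gene. Mvb12b then made up 32.3 and 33.1% of the summed level of Mvb12a, Mvb12b and Ubap1 in the batch 2 shCTL cultures. In the shHrs cultures of that batch it made up 17.9 and 11.3%. In batch 1 it was 28.0 and 24.9% in shCTL and 26.2 and 23.6% in shHrs. In tumours the share was 15.2% ± 0.644 (SD, n = 5) in shCTL and 14.5% ± 1.3 (SD, n = 5) in shHrs (two-sided exact permutation test, p = 0.405). Mvb12a was the largest of the 3 in tumours, at 61.0% ± 1.36 in shCTL and 58.8% ± 3.94 in shHrs, and Ubap1 stood at 23.9% ± 1.45 and 26.7% ± 2.72 (exact permutation p = 0.0873). Shares were tested in tumours for 12 subunits of 5 such families, over 252 splits of 5 against 5 whose smallest possible p is 0.00794, and the p adjusted over the 12 ran from 0.634 to 0.889. Shares in cultures were not tested, and an exact permutation test of 2 against 2 libraries cannot reach 0.05.

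**Figure D3:**
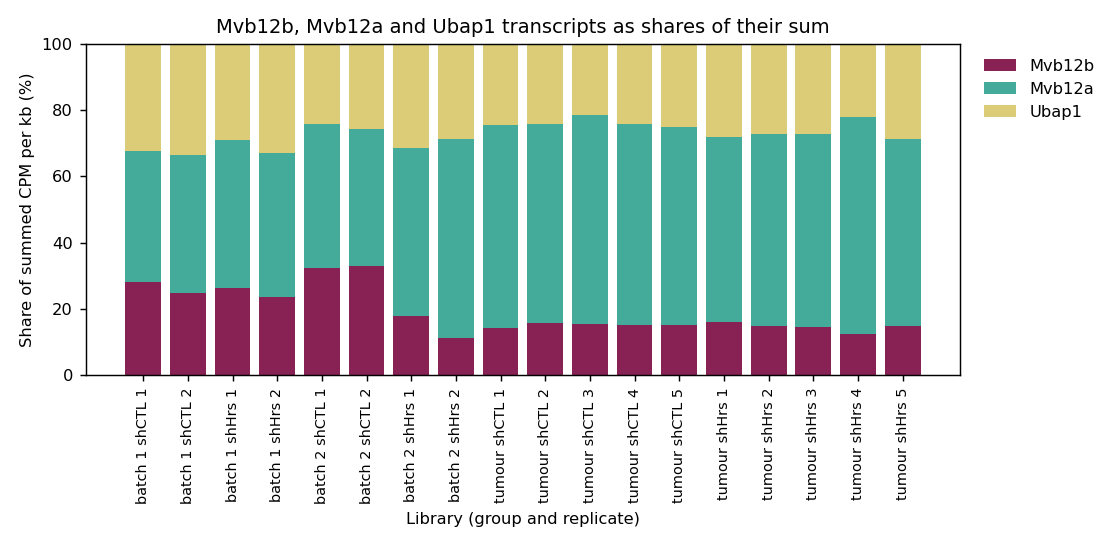
Mvb12b, Mvb12a and Ubap1 as shares of their summed CPM per kilobase of exon (y axis, percent) in each of 18 libraries (x axis). Mvb12b takes 32.3 and 33.1% in the shCTL cultures of batch 2, 17.9 and 11.3% in the shHrs cultures of that batch, and about 15% in tumours of both groups.

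The promoter windows of the 2 MVB12 genes are given because these genes share a subunit slot while their levels in batch 2 lay on opposite sides of the controls. Mvb12a was not called there, and in batch 2 the shHrs cultures lay above both controls for 35% of all genes and below for 34.7%. RefSeq promoters on GRCm38.p6 (250 bases before to 50 after the start) held 27 of the 35 genes, in 29 windows of 300 bases. The windows below stop before the first annotated exon, read 5′ to 3′ along the gene, and capitals mark a match to a searched motif.
Mvb12b, chr2:33887947-33888196, minus strand: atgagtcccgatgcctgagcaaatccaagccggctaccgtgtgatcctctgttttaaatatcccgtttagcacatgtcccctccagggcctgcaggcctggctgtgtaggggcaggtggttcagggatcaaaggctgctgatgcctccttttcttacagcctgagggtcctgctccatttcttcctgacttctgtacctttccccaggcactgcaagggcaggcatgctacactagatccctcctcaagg
Mvb12a, chr8:71542680-71542921, plus strand: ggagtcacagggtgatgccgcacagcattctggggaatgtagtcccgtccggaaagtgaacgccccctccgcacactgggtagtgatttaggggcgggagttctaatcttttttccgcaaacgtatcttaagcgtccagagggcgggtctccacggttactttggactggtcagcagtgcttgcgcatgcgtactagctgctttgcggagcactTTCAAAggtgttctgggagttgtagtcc
Tom1, chr8:75033436-75033685, plus strand: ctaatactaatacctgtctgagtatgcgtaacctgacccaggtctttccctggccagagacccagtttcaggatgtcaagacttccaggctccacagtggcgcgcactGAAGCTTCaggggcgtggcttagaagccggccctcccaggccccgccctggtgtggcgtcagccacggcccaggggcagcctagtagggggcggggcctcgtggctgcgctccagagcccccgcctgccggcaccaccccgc
Tom1 is added as the gene with the smallest p over both culture batches. Each motif was searched on both strands of the whole 300-base windows, and any could overlap another. The Mvb12a capitals match TTTGAA, the core of the cell cycle CHR element, which 17.9% of all 32851 RefSeq promoters held and 3 of the 29 windows (Chmp2b, Mvb12a and Pdcd6ip). The Tom1 capitals match GAANNTTC, a minimal heat shock element, held by 7.86% of all promoters and by 2 windows (Stambp and Tom1). The E-box CACGTG was in 7.15% of all promoters and in Gga2, Pdcd6ip and Tom1, where it lay past the printed stretch. TGACGTCA, the cAMP response element, was in 1.79% of all promoters and in Chmp2a, and CCAAT in 37.4% of all promoters and 8 windows. The core of the interferon-stimulated response element was in 3.44% of all promoters, and TGATGNAA, from the ATF4 composite element, in 3.97%, and both were in 0 of the 29 windows. The Mvb12b window held none of the 7 motifs.

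Among the other ESCRT-I subunits, Tsg101, the subunit that Hrs binds, was 76.8 and 80.5 CPM in the batch 1 controls, 82.6 and 58.8 CPM in batch 1 shHrs, 78.2 and 66.5 CPM in the batch 2 controls and 72.0 and 99.3 CPM in batch 2 shHrs. In tumours it was 123, 105, 117, 121 and 107 CPM in shCTL and 109, 121, 118, 97.0 and 110 CPM in shHrs. The groups overlapped in each setting. The tumour log2 fold change was -0.05 with a 95% confidence interval of -0.22 to 0.11 (edgeR adjusted p 0.807). Vps28, the subunit that links ESCRT-I to ESCRT-II, read 86.4 and 68.9 against 70.5 and 76.4 CPM in batch 1 and 85.5 and 99.4 against 78.4 and 108 CPM in batch 2. In tumours it read 100, 82.3, 86.8, 91.8 and 83.7 CPM in shCTL and 79.7, 90.6, 87.4, 109 and 77.1 CPM in shHrs, a log2 fold change of -0.01 (SE 0.10). These 2 core subunits thus overlapped between shHrs and shCTL throughout.

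The VPS37 subunits, which occupy another position of ESCRT-I, did not move together in cultures. Vps37a was 34.8 and 34.6 against 34.8 and 61.9 CPM in batch 1 and 41.3 and 48.9 against 35.5 and 34.6 CPM in batch 2, so its excess in batch 1 came from shHrs 2. In tumours it was 45.5, 39.0, 34, 38.6 and 39.0 CPM in shCTL and 42.6, 45.5, 48.2, 36.0 and 49.2 CPM in shHrs, with a log2 fold change of 0.17 (SE 0.10, edgeR adjusted p 0.494). Vps37b was 44.1 and 51.9 against 39.3 and 38.6 CPM in batch 1 and 45.5 and 44.2 against 48.7 and 53.0 CPM in batch 2. The batch effects of Vps37a differed by -0.88 (SE 0.39, edgeR adjusted p 0.258) and those of Vps37b by 0.44 (SE 0.29, edgeR adjusted p 0.421), and neither was called. Vps37c ran from 26.5 to 40.2 CPM in all 18 libraries. For Vps37b, 42.5% of its exon bases overlap genes on the opposite strand (Hip1r among them), and the strand setting of the counting is not given in the sources used here.

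ESCRT-II, built of Snf8, Vps25 and Vps36, gave 0 calls of 3 in each comparison. Snf8 was 36.3 and 41.0 against 39.7 and 25.0 CPM in batch 1, and 40.3 and 34.8 against 42.4 and 63.3 CPM in batch 2. In tumours it was 72.4, 60.0, 74.0, 66.6 and 66.4 CPM in shCTL and 65.7, 71.5, 69.3, 89.5 and 60.7 CPM in shHrs, with a log2 fold change of 0.07 (SE 0.11, edgeR adjusted p 0.832). All 3 subunits had shHrs above shCTL without overlap in batch 2, as 35% of all genes did, with log2 fold changes of 0.37 to 0.44, and values from -0.26 to -0.06 in batch 1. None of these passed. Of the exon bases of Vps25, 67.2% also belong to Ramp2 on the same strand, so its counts, from 72.1 to 158 CPM, may be split between the genes and are uncertain.

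Of the ESCRT-III core, Chmp4b, the subunit that forms the bulk of the membrane-cutting filament, was 207 and 186 against 192 and 379 CPM in batch 1 and 213 and 248 against 219 and 312 CPM in batch 2. Tumours had 260, 213, 235, 222 and 228 CPM in shCTL and 223, 235, 236, 237 and 208 CPM in shHrs. The 379 CPM of shHrs 2 of batch 1 stood above the 17 other libraries, while the tumour groups overlapped with a log2 fold change of -0.03 (SE 0.07, edgeR adjusted p 0.904). Chmp2a, which with Chmp3 caps the filament and recruits Vps4, was 93.6 and 86.9 against 68.5 and 86.3 CPM in batch 1 and 92.0 and 88.8 against 89.2 and 146 CPM in batch 2. Its tumour values were 158, 120, 155, 126 and 139 CPM in shCTL and 125, 143, 143, 134 and 122 CPM in shHrs, with a log2 fold change of -0.07 (SE 0.09). The 2 shHrs cultures of batch 2 were thus far apart for Chmp2a, and the tumours overlapped.

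Chmp3 was 117 and 119 CPM in the batch 2 controls and 168 and 223 CPM in batch 2 shHrs, a log2 fold change of 0.68 (SE 0.24, p 0.0227, edgeR adjusted p 0.119). In batch 1 it was 119 and 150 against 144 and 121 CPM. Tumours ran from 118 to 131 CPM in shCTL and from 98.6 to 138 CPM in shHrs. The batch 2 groups were apart without a call and the others overlapped. Chmp2b, mutated in a familial dementia, and Chmp6, which starts the filament from ESCRT-II, spanned 68.7 to 105 CPM and 68.1 to 94.4 CPM over the 18 libraries, with tumour log2 fold changes of -0.02 and -0.05.

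The ESCRT-III associated genes held the largest positive log2 fold change of batch 2. Chmp1a, which recruits Vps4 and acts late on the filament, was 92.8 and 81.1 CPM in the batch 2 controls and 143 and 168 CPM in batch 2 shHrs. It was 93.1 and 102 against 89.3 and 118 CPM in batch 1, and 93.5, 84.9, 104, 93.3 and 80.9 CPM against 87.9, 102, 108, 93.1 and 108 CPM in tumours. The groups were apart in batch 2 and overlapped elsewhere. The batch 2 log2 fold change of 0.79 (SE 0.23, p 0.00814, edgeR adjusted p 0.0781) missed the threshold, the batch 1 value was 0.07 (SE 0.23) and the tumour value 0.12 (SE 0.09). With DESeq2 the batch 2 adjusted p was 0.0305.

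Chmp7, which seeds ESCRT-III at the nuclear envelope, was 45.1 and 50.7 against 77.0 and 80.7 CPM in batch 2 and 55.9 and 60.7 against 56.7 and 56.2 CPM in batch 1. Tumours had 61.8, 56.9, 62.3, 58.9 and 57.2 CPM in shCTL and 56.6, 62.8, 61.7, 44.5 and 62.3 CPM in shHrs. The 2 batch 2 groups were well apart, and one tumour, shHrs 4, was below the rest. The log2 fold change was 0.67 in batch 2 (SE 0.20, p 0.00959, edgeR adjusted p 0.0836), -0.05 in batch 1 (SE 0.20) and -0.05 in tumours (SE 0.09), and the batch effects differed by 0.73 (SE 0.28, edgeR adjusted p 0.204). Its tumour effect minus its culture effect was -0.38 (SE 0.15, edgeR adjusted p 0.139). Ist1, which regulates Vps4, ran from 70.0 to 97.4 CPM over the 18 libraries, with a tumour log2 fold change of 0.11 (SE 0.06, edgeR adjusted p 0.494). Chmp1b ran from 29.5 to 44.6 CPM and Chmp5 from 61.9 to 117 CPM, the latter value in shHrs 2 of batch 2.

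**Figure D4:**
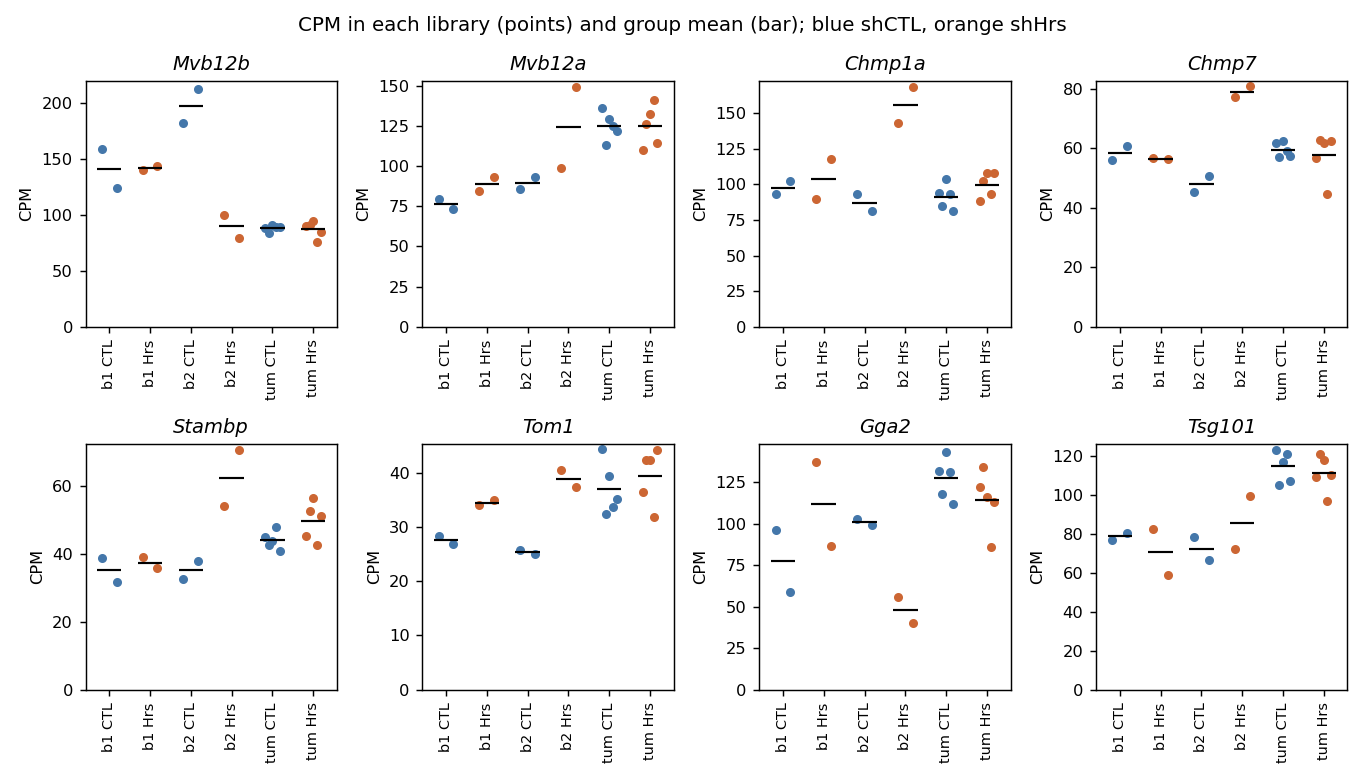
CPM (y axis) in each library (points; blue shCTL, orange shHrs) with group means (bars) for Mvb12b, Mvb12a, Chmp1a, Chmp7, Stambp, Tom1, Gga2 and Tsg101, in cultures of batch 1 (b1) and batch 2 (b2) and in tumours (tum). Mvb12b and Gga2 lie below and Chmp1a, Chmp7, Stambp and Tom1 above the controls in batch 2, and the tumour groups overlap in all 8 panels.

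The Vps4 ATPases recycle ESCRT-III. Vps4a was 36.8 and 33.7 against 31.1 and 18.6 CPM in batch 1 and 26.2 and 24.7 against 29.6 and 39.6 CPM in batch 2, below its controls in the first and above them in the second. Tumours had 46.7, 45.4, 53.5, 50.1 and 48.4 CPM in shCTL and 43.7, 49.6, 47.1, 50.6 and 47.0 CPM in shHrs, with a log2 fold change of -0.04 (SE 0.07). The batch effects differed by 0.90 (SE 0.42, edgeR adjusted p 0.277), which was not called. Vps4b was 73.7 and 76.4 against 75.6 and 97.3 CPM in batch 1 and 73.9 and 85.0 against 87.5 and 103 CPM in batch 2. In tumours it was 79.9, 74.3, 77.1, 79.5 and 74.8 CPM in shCTL and 82.2, 75.0, 91.3, 51.3 and 88.5 CPM in shHrs, so the shHrs group both contained and passed the range of the controls. The Vps4 cofactor Vta1 ran from 45.5 to 73.5 CPM.

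The Bro1 proteins lead a route into ESCRT-III that can bypass ESCRT-I. Pdcd6ip (Alix) was 189 and 205 against 214 and 243 CPM in batch 1 and 201 and 195 against 279 and 263 CPM in batch 2, above its controls in both. In tumours it was 204, 187, 186, 188 and 185 CPM in shCTL and 180, 196, 206, 129 and 202 CPM in shHrs. The culture log2 fold change over both batches was 0.30 (SE 0.15, p 0.0718, edgeR adjusted p 0.398) and the tumour value -0.06 (SE 0.11). The tumour effect minus the culture effect was -0.39 (SE 0.17, edgeR adjusted p 0.195), and none of these was called. Ptpn23 (HD-PTP), which hands epidermal growth factor receptor to ESCRT-III, was 141 and 171 against 178 and 190 CPM in batch 1 and 140 and 128 against 190 and 130 CPM in batch 2. Tumours had 168, 153, 155, 139 and 150 CPM in shCTL and 175, 177, 176, 186 and 154 CPM in shHrs. In tumours 4 of the 5 shHrs values lay above the highest control, and the log2 fold change of 0.18 (SE 0.08, p 0.0376, edgeR adjusted p 0.32) was not called.

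Of the endosomal deubiquitinases, Stambp (AMSH), which trims ubiquitin chains on ESCRT cargo, was 32.7 and 38.0 CPM in the batch 2 controls and 54.0 and 70.5 CPM in batch 2 shHrs. It was 38.8 and 31.8 against 39.1 and 35.7 CPM in batch 1, and 45.0, 42.6, 43.9, 48.0 and 40.8 against 45.3, 52.5, 56.4, 42.5 and 51.0 CPM in tumours. The batch 2 groups were apart and the others overlapped. Its log2 fold change was 0.77 in batch 2 (SE 0.23, p 0.0107, edgeR adjusted p 0.0868), 0.08 in batch 1 (SE 0.23) and 0.16 in tumours (SE 0.08, p 0.0762, edgeR adjusted p 0.422). Usp8, which deubiquitinates receptors and ESCRT-0 itself, was 112 and 106 against 118 and 152 CPM in batch 1 and 122 and 134 against 131 and 100 CPM in batch 2. Tumours had 93.9, 94.9, 90.4, 94.9 and 82.6 CPM in shCTL and 97.7, 107, 112, 74.8 and 121 CPM in shHrs. In tumours 4 of the 5 shHrs values lay above all controls and shHrs 4 below them, with a log2 fold change of 0.16 (SE 0.11, edgeR adjusted p 0.567).

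The ubiquitin receptors that can act beside Hrs share a VHS or ubiquitin-binding region with it or its partners. Tom1, which binds endosomes through Tollip and Endofin, was 28.3 and 26.9 against 34.1 and 34.9 CPM in batch 1 and 25.7 and 25.0 against 40.5 and 37.3 CPM in batch 2. Tumours had 44.4, 32.4, 39.4, 33.7 and 35.1 CPM in shCTL and 36.5, 42.4, 42.3, 31.9 and 44.2 CPM in shHrs. Both batches had shHrs above shCTL without overlap, and the tumours overlapped. Over both batches the log2 fold change was 0.44 (SE 0.15, p 0.0197, edgeR adjusted p 0.336, higher in 4 of 4 shHrs cultures). It did not pass in either batch, at 0.31 (SE 0.21) and 0.57 (SE 0.21, edgeR adjusted p 0.123), nor in tumours, at 0.09 (SE 0.11).

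The GGA proteins carry cargo between the trans-Golgi network and endosomes. Gga2 was 103 and 98.9 CPM in the batch 2 controls and 55.9 and 40.0 CPM in batch 2 shHrs, and 96.4 and 59.0 against 137 and 86.5 CPM in batch 1. Tumours had 132, 118, 143, 131 and 112 CPM in shCTL and 122, 134, 116, 85.9 and 113 CPM in shHrs. Batch 2 values were apart and those of batch 1 overlapped. The log2 fold change was -1.12 in batch 2 (SE 0.34, p 0.0102, edgeR adjusted p 0.0853; DESeq2 adjusted p 0.029), 0.52 in batch 1 (SE 0.34) and -0.16 in tumours (SE 0.11), and the batch effects differed by -1.64 (SE 0.48, edgeR adjusted p 0.131; DESeq2 adjusted p 0.0335). Gga3 was 40.9 and 39.2 against 50.4 and 54.0 CPM in batch 1 and 50.7 and 45.1 against 41.6 and 31.7 CPM in batch 2. Its tumour values were 30.8, 41.3, 37.3, 33.1 and 46.3 CPM in shCTL and 44.2, 35.4, 41.8, 49.4 and 41.3 CPM in shHrs. Gga3 was above its controls in batch 1 and below them in batch 2, with a difference of -0.81 (SE 0.32, edgeR adjusted p 0.209) that was not called. Gga1 ran from 108 to 170 CPM over the 18 libraries, Tollip from 81.6 to 145 CPM and Tom1l2 from 81.5 to 330 CPM. The batch 2 log2 fold changes of these 3 were -0.09, -0.10 and -0.09.

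Levels were set side by side per kilobase of exon, with the length taken over all annotated exons of a gene. From the lowest to the highest of the 34 genes within a library they spanned 28.7-fold ± 3.67 (mean and SD over the 5 shCTL tumours). Chmp2a was highest at 120 CPM per kilobase and Chmp4b next at 114, followed by Vps25 at 77.0 and Chmp5 at 58.6, while Stambp was lowest at 4.22, after Gga3 at 6.05 and Vps37a at 6.15. Chmp4c stood far below, at 0.0187 CPM per kilobase. Within families, Chmp2a took 73.2% ± 2.56 (SD, n = 5) of the CHMP2 pair and Vps4a 69.1% ± 1.39 of the VPS4 pair in shCTL tumours. Gga1 took 64.3% ± 2.18 of the 3 GGA genes, and Vps37b 43.9% ± 2.92 of the 4 VPS37 genes. The shHrs tumours had 72.7% ± 2.60, 68.6% ± 5.56, 63.0% ± 1.78 and 44.1% ± 1.05 (exact permutation p = 0.762, 0.889, 0.317 and 0.889 in that order). Some of these orders depend on the length used. Not divided by length, shCTL tumours averaged 288 CPM for Tom1l2, 140 for Chmp2a, 44 for Stambp and 30.8 for Vps37c. Vps4b, at 77.1 CPM, then stood above Vps4a, at 48.8 CPM. The coefficient of variation of a gene between libraries had a median of 6.55% in shCTL tumours and 10.1% in shHrs tumours, 6.07 and 17.6% in batch 1, and 6.19 and 16.5% in batch 2.

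**Figure D5:**
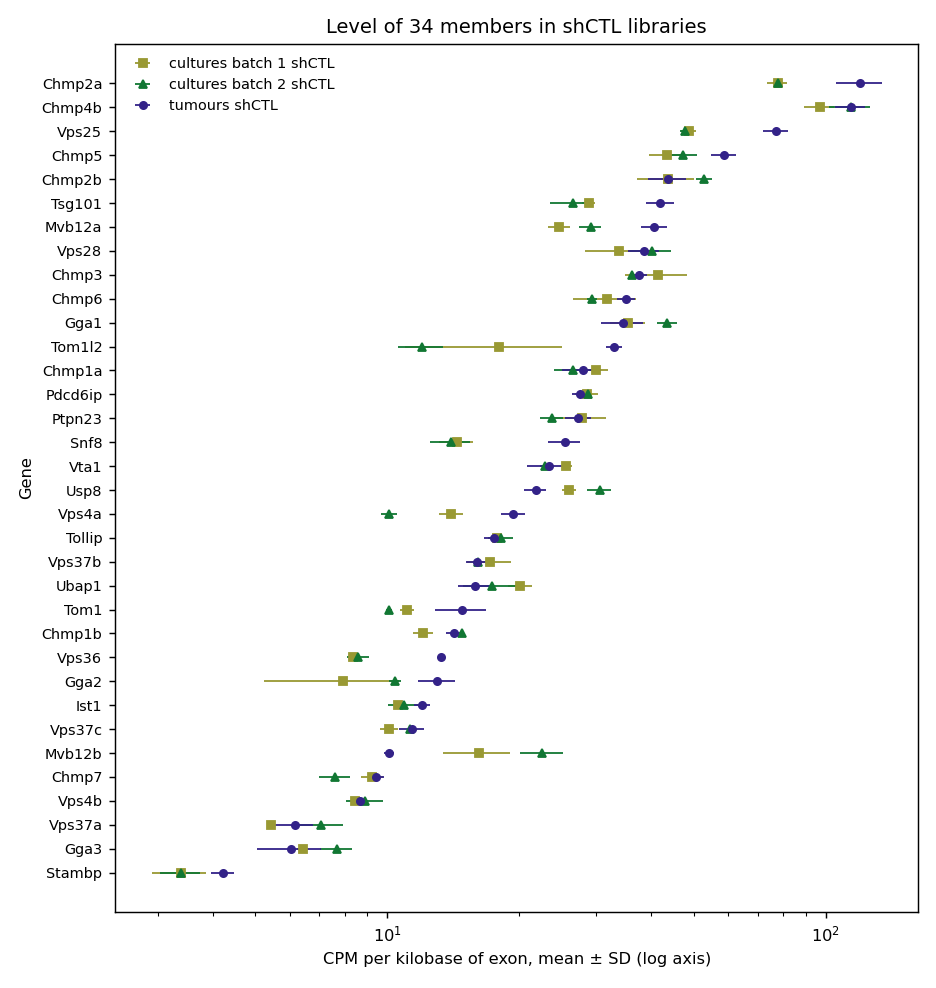
Level of the 34 tested genes (y axis) in shCTL libraries as CPM per kilobase of exon (x axis, log scale, mean ± SD; n = 2 for each culture batch and n = 5 for tumours). Chmp2a and Chmp4b lie at 120 and 114 in tumours and Stambp at 4.22, and Mvb12b is the gene whose tumour point lies farthest below its culture points.

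The control tumours stood above all 4 control cultures for 13 of the 34 genes, below all 4 for 2 and overlapped them for 19, beside 22.4% of all 14458 genes tested with the tumours above and 18.9% with the tumours below. The 2 below were Mvb12b, by -0.94 log2 units, and Usp8, by -0.38. Among the 13 above, Tom1l2 was at 1.13, Snf8 at 0.83, Vps4a at 0.69, Vps25 at 0.67, Vps36 at 0.65, Chmp2a at 0.63 and Tsg101 and Mvb12a at 0.60. The 3 ESCRT-II genes were among them. The value of Vps25 is uncertain, as 67.2% of its exon bases also belong to Ramp2 on the same strand. Growth in a mouse, host cells and any separate sequencing run cannot be told apart here, and no test was made.

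Genes of the wider pathway were mostly not called by edgeR. Over all genes it called 4.03% in batch 2 (2.43% lower), 0.545% in tumours and 0% in batch 1 and over both batches. It called 0.155% between the batch effects and 3.61% between tumour and culture effects. Of the other ESCRT-linked genes, 9 were tested in batch 2 and 1 was lower: Cep55, which brings ESCRT to the midbody, at -2.22 log2 units (SE 0.41, edgeR adjusted p 0.0328). Its tumour effect was above its culture effect by 1.54 (SE 0.27, edgeR adjusted p 0.00684). The 6 cell cycle genes ran from -3.19 to -1.13 in batch 2 and from 0.75 to 1.71 in that difference. A link of Cep55 to them was not tested. Of 10 tested ubiquitin ligases and adaptors of endosomal cargo, 1 was lower in batch 2, the Nedd4-family ligase Wwp1 at -1.15 (SE 0.21, edgeR adjusted p 0.0328). Of 11 retromer and recycling genes 0 were called within any setting, and the sorting nexin Snx5 had a lower effect in tumours than in cultures, by -0.53 (SE 0.14, edgeR adjusted p 0.0448). Apart from Hgs, the ESCRT-0 partners (Stam, Stam2, Eps15, Eps15l1 and Tom1l1) gave 0 calls of 5 in each comparison by edgeR. In tumours, none of these lists had a call other than Hgs.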

How the data were processed

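RNA of 8 cultures and 10 tumours was made into NEBNext Ultra libraries and read in pairs on an Illumina HiSeq, per the labels' protocols. The authors deposited raw counts per gene symbol, 1 column for each library. STAR 2.4.0h2, DESeq and mm10 are named in the submitters' processing notes without a role. Which tool counted the reads, on which annotation and strand, is not given in the sources used here. Overlapping genes may therefore have shared or lost reads.

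Counts were tested with edgeR 4.0.16 in R 4.3.3 (filterByExpr with a minimum count of 10, TMM, quasi-likelihood F test, two-sided, Benjamini-Hochberg over all genes tested). Cultures were fitted with batch as a term and with a mean per batch and treatment, tumours alone, and all 18 libraries with a mean per group for the difference between tumour and culture effects. DESeq2 1.42.0, limma 3.58.1 with voom, median-ratio size factors, no filter, a replicate block and fits without each library were alternatives. Plots by library use log2(CPM + 2). Exon lengths (all annotated exons of a gene merged) and overlaps came from GENCODE M21. The scripts were tested on simulated counts. Of the gene lists, Chmp1b2 had no row, Adgre1 was read as Emr1, Ubap1l as Gm514 and Hbb-bs as Beta-s. Replicate numbers were not used as pairs in the main fits, and the sample titles name no pairs.

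Every gene is accounted for by role. Values in each library are given for genes past the threshold, the 4 smallest p in each comparison, the highest and lowest level, and 10 genes named by role (Tsg101, Vps28, Snf8, Chmp4b, Chmp2a, Vps4a, Vps4b, Pdcd6ip, Usp8 and Tom1). Hgs, Stam and Stam2 are given as the targeted complex, and other lists name at most 4 genes past the threshold. The genes and lists were chosen with earlier results of these data known.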

Additional observations from a re-analysis of the deposited data

Results flagged for a closer look

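Of 72 groups of 5 tumours examined (36 genes in each of 2 groups), 2 held a library far from the others, where chance gives about 1 in 20. Chmp1b was 42.7 CPM in shHrs tumour 3, and the next highest shHrs tumour had 35.6 CPM. Pdcd6ip was 204 CPM in shCTL tumour 1, and the next had 188 CPM. Both values lie within the range of the cultures. For 2 genes the tumour effect differed from the mean of the batch effects by the test of the difference itself. Hgs did so by -0.82 log2 units (SE 0.21, edgeR adjusted p 0.0407), with the lower value in tumours. Mvb12b did so by 0.55 (SE 0.14, edgeR adjusted p 0.048), with effects of -1.18 in batch 2, 0.00 in batch 1 and -0.02 in tumours. Each of these calls was lost in 14 of the 18 fits that left out a library, while over the 18 fits the difference stayed between -0.96 and -0.72 for Hgs and between 0.45 and 0.62 for Mvb12b.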

How the results depend on the processing

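In tumours 0 downstream genes were called higher or lower under every alternative run. Of all genes, 0.0151% (replicate block) to 3.69% (DESeq2) were called there. With all libraries kept, 0 downstream genes were called in batch 1 and over both batches as well. The share of all genes ran from 0% (limma voom) to 2.49% (no filter) in batch 1. Over both batches it ran from 0% (replicate block) to 2.14% (DESeq2). Where it was 0%, no downstream gene could have been called. In batch 2 the count higher, 0 by edgeR, was 3 with DESeq2 (Chmp1a, Chmp7 and Stambp) and 5 on the 4 libraries of the batch alone (with Chmp3 and Tom1). The count lower, 1, was 2 with DESeq2, with no filter and on the batch alone (with Gga2), and 0 with the replicate block (Mvb12b adjusted p 0.056). Of all genes tested in batch 2, 4.03% were called by edgeR, 15.3% with DESeq2, 12.6% with no filter, 34.1% on the batch alone and 3.6% with the block. Leaving out a library gave 0 to 3 higher and 0 to 2 lower; the 3 and 2 came without either shHrs culture of batch 1, where 20.4 and 20.7% of all genes were called, and 0 lower without any one batch 2 library, where 0 genes of the whole table were called. Between the batch effects, 1 gene (Gga2) was lower with DESeq2 and with no filter (7.21 and 7.45% of all genes, against 0.155% by edgeR). Its difference between the batch effects stayed between -2.03 and -1.21 log2 units whichever culture was left out. Between tumour and culture effects, the count of 1 higher was 0 with limma voom, with no filter and with the replicate block (Mvb12b adjusted p 0.123), where 3.18, 1.98 and 2.58% of all genes were called against 3.61%, and leaving out a library gave 0 to 1 higher and 0 to 2 lower (Vps37c and Chmp4b without shHrs 1 of batch 1, with 14.6% of all genes called). The cause of these changes was not tested. The span of levels within a shCTL tumour, on average 28.7-fold per kilobase, was 9.54-fold in CPM not divided by length. Among 3128 single values under alternatives, 3080 kept their call, 22 lost it, 26 gained it and 0 reversed while called, and 161 not called in either changed sign. Correlations of same-numbered deviations were 0.18 in batch 1, 0.02 in batch 2 and -0.60 to 0.47 in tumours, and the replicate block took all genes called in tumours from 72 to 2. Depth limits Chmp4c, with at most 19 counts in a library.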
